A study of Rattus norvegicus with 18 samples.

Results

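Dorsal root ganglia of rats were compared to ask whether the response to a herbal decoction differed between a neuropathic pain model and its sham control. The quantity described is a difference of differences, computed for each gene as the log2 fold change of NPP_herb against NPP_solvent minus the log2 fold change of Sham_herb against Sham_solvent. It is called the interaction below. The 4 groups hold 3 libraries each, so 12 of the 18 libraries of the series enter it. NPP_solvent and NPP_herb carry the disease state NPP, the neuropathic pain model of the study, and received solvent or herb. Sham_solvent and Sham_herb carry the disease state Sham and received solvent or herb. The series' design text names the herb as Shentong Zhuyu Decoction, a preparation of 12 ingredients, most of them plants. No group of the comparison was left without solvent or herb. The sources used here do not state the method of injury, the solvent, the dose and duration, or the strain, age and sex of the rats. Nor do the labels tell whether replicates are different rats. The p-values then reflect only variation among these libraries, which may be technical in part.

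The dorsal root ganglion holds the cell bodies of sensory neurons, each wrapped by satellite glia, together with Schwann cells, resident macrophages, vessels and a connective tissue capsule that continues into the meninges of the nerve root. Damage to the axon switches on injury genes in these neurons, and interferons switch on a large antiviral programme in neurons, glia and immune cells alike. A positive interaction means that herb against solvent was more positive in NPP than in Sham. A gene can reach it by a higher level in NPP_herb or Sham_solvent, a lower level in Sham_herb or NPP_solvent, or several of these.

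The libraries held 18334197 to 50289652 counted reads. Defining neuronal markers were high in every library, with median FPKM, which scales counts to library size and gene length, of 1693 for Tubb3 and 920.2 for Prph. Of 5 spinal cord markers measured, 4 were close to absent: Olig1 was listed at 0 in 9 of the 12 libraries, and Mog, Mobp and Chat had medians of 0.0350, 0.0450 and 0.00500 FPKM. The fifth, the water channel gene Aqp4, had a median of 1.43 FPKM. Y-linked reads were present in all 12 libraries. Replicates of a group correlated with a median r of 0.977, and no pair agreed within sampling noise.

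No gene passed the test for an interaction. Of 17043 genes tested with edgeR's quasi-likelihood test, 0 (0%) had a Benjamini-Hochberg adjusted p under 0.05, and the smallest adjusted p was 0.83. At an unadjusted p under 0.05 there were 580 genes (3.4%), of which 322 (1.89%) were higher and 258 (1.51%) lower, while 852 would be listed if every gene were null. The interaction was above 0, by any amount, in 47.7% of all genes tested and below 0 in 52.3%. Limma with quality weights per library and limma on FPKM also called 0 genes, and DESeq2 called 3 (0.0176%). The median SE of the interaction was 0.26 on the log2 scale, and 0.19 among the 9654 genes with a mean of at least 10 CPM, the count scaled to library size. Interactions much smaller than these errors were not detectable with 3 libraries a group, and larger ones need not pass either. That of Gjb2 below, 1.94 and several times its SE, had an edgeR adjusted p of 0.862.

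The estimated herb effects of the NPP and Sham arms, which share no library, were close to unrelated across genes. Pearson's r between them was 0.0360 and Spearman's rho 0.0976 over 17043 genes, and 0.0591 and 0.156 over the 9654 better expressed ones. These describe genes, which are not independent replicates. Errors of the estimates in each arm also pull such a correlation toward 0. A low value therefore does not show that the arms responded differently. Both effects had the same sign for 54.7% of genes. Leaving out single libraries moved this share from 41.4% (without NPP_solvent replicate 2) to 65.6% (without NPP_solvent replicate 3). Pearson's r then ran from -0.0678 (without Sham_solvent replicate 2) to 0.113 (without NPP_herb replicate 2). The median absolute herb effect was 0.196 in Sham and 0.0947 in NPP on the log2 scale, and the herb and solvent libraries did not overlap for 2485 genes (14.6%) in Sham and for 903 genes (5.3%) in NPP. With 3 libraries against 3, separation without overlap also arises by random order. These are therefore not counts of genes that respond to the herb. Fewer genes separated herb from solvent in both arms at once. In 33 genes (0.194%) herb lay above solvent in NPP and below it in Sham without overlap, and in 23 genes (0.135%) the reverse held. In 29 genes (0.17%) herb lay above solvent in both arms, and in 46 (0.27%) below it in both. In NPP alone herb lay above solvent for 2.69% of genes and below it for 2.61%, and in Sham alone for 8.52% and 6.06%. Multiplied, these single-arm shares are of the same order as the shares in both arms. Crossing without overlap is therefore not by itself a result about a gene.

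**Figure D1:**
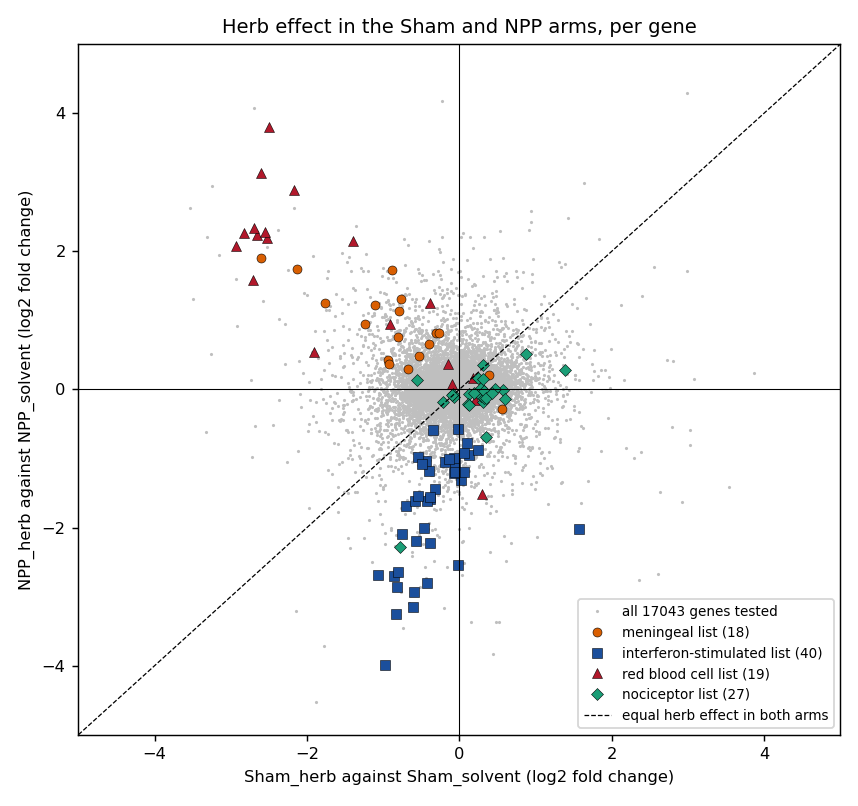
Herb effect in Sham (horizontal axis) against herb effect in NPP (vertical axis), both as log2 fold change of herb against solvent, for each gene tested (grey) and the members of 4 gene lists (coloured); the dashed line marks equal effects and 13 genes lie outside the axis limits of 5. The cloud shows no slope, meningeal and red blood cell genes sit at the upper left, and interferon-stimulated genes sit below the horizontal line.

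Genes of the meningeal coverings formed the list whose members most often had a small p. These genes mark the fibroblast-like cells of the pia and arachnoid, which make retinoic acid, gap junctions and organic ion transporters. Of 18 members tested, 14 had an unadjusted p under 0.05 and all 14 were higher, beside 1.89% of all genes. No member passed the adjusted test. Lists and members were chosen with earlier results of these data known, and members of a list share the same 12 libraries. Counts set beside all-gene shares are therefore descriptions and not tests of enrichment, here and for the lists below. For every list, the all-gene shares at an unadjusted edgeR p under 0.05 are 1.89% higher and 1.51% lower. The interaction was above 0 in 16 of 18 members, with a median of 1.46 against -0.02 over all genes tested. Herb against solvent was above 0 in 17 of 18 in NPP, with a median of 0.82, and below 0 in 16 of 18 in Sham, with a median of -0.80. The crossed pattern of above 0 in NPP and below 0 in Sham held for 16 of 18 members and for 21.1% of all genes tested.

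The gap junction gene Gjb2, which encodes connexin 26, had the smallest p among the genes named by rule. Gjb2 was at 4.999, 3.104 and 4.39 CPM in Sham_solvent, 2.17, 3.04 and 1.96 in Sham_herb, 2.43, 1.73 and 1.39 in NPP_solvent and 4.41, 4.13 and 3.68 in NPP_herb. All 3 NPP_herb libraries lay above all NPP_solvent libraries, and all 3 Sham_herb libraries lay below all Sham_solvent libraries. On the log2 scale, herb against solvent was 1.14 ± 0.28 (SE) in NPP and -0.80 ± 0.27 in Sham, an interaction of 1.94 ± 0.39 with an unadjusted edgeR p of 0.000101 and an adjusted p of 0.862. DESeq2 called it, at an adjusted p of 0.0104.

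Ptgds, the prostaglandin D synthase that is a major secreted product of the arachnoid, showed the same crossing without overlap. Ptgds was at 940.1, 237 and 265 CPM in Sham_solvent, 104, 148 and 173 in Sham_herb, 193, 101 and 20.5 in NPP_solvent and 347, 195 and 208 in NPP_herb. Its highest value by far was Sham_solvent 1 and its lowest NPP_solvent 3, so the spread within the solvent groups was wide. The log2 herb effect was 1.26 ± 0.74 (SE) in NPP and -1.76 ± 0.75 in Sham, which gave an interaction of 3.02 ± 1.06 (edgeR, unadjusted p = 0.0139, adjusted p = 0.920).

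Cldn11, the tight junction claudin of the arachnoid barrier, was highest in Sham_solvent 3 and lowest in NPP_solvent 3. Cldn11 was at 33.3, 19.96 and 37.1 CPM in Sham_solvent, 7.66, 15.1 and 15.7 in Sham_herb, 18.4, 8.67 and 5.002 in NPP_solvent and 32.4, 16.5 and 12.8 in NPP_herb. Sham_herb lay below Sham_solvent without overlap, and the NPP groups overlapped. For Cldn11, the log2 fold change of herb against solvent was 0.95 ± 0.46 (SE) in NPP and -1.23 ± 0.46 in Sham, and the interaction was 2.18 ± 0.65, with edgeR p-values of 0.00499 unadjusted and 0.920 adjusted.

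Igfbp2, a binding protein of insulin-like growth factors, differed mainly in Sham. Igfbp2 was at 66.9, 33.9 and 66.8 CPM in Sham_solvent, 28.9, 29.9 and 29.2 in Sham_herb, 40.3, 48.2 and 26.2 in NPP_solvent and 44.8, 47.1 and 55.7 in NPP_herb. The 3 Sham_herb libraries lay within a narrow band below Sham_solvent, and the NPP groups overlapped. In log2 terms, herb differed from solvent by 0.37 ± 0.24 (SE) in NPP and by -0.93 ± 0.24 in Sham, for an interaction of 1.29 ± 0.34 at an unadjusted edgeR p of 0.00160 and an adjusted p of 0.920.

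Cemip, a hyaluronan-degrading protein, differed mainly in NPP. Cemip was at 10.4, 7.31 and 6.21 CPM in Sham_solvent, 6.53, 6.83 and 5.92 in Sham_herb, 4.94, 4.44 and 3.97 in NPP_solvent and 7.201, 7.47 and 8.79 in NPP_herb. The NPP_herb libraries lay above all NPP_solvent libraries, and the Sham groups overlapped. The fitted herb effects on Cemip were 0.82 ± 0.21 (SE, log2) in NPP and -0.31 ± 0.20 in Sham, with an interaction of 1.13 ± 0.29, an unadjusted edgeR p of 0.00120 and an adjusted p of 0.920.

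The organic anion transporters Slc22a8 and Slc22a6 had the largest values of the list, 4.501 ± 1.01 and 3.87 ± 1.3002, at levels mostly under 1 CPM. The GABA transporter Slc6a13 (2.32 ± 0.78), the multidrug exporter Slc47a1 (2.07 ± 0.79) and the retinoic acid synthase Aldh1a2 (2.62 ± 0.95) were also higher. Among transcription factors of meningeal fibroblasts, Foxd1 (1.57 ± 0.55) and Foxc1 (1.06 ± 0.40) were higher, whereas Tbx18 was at -0.85 ± 0.65. The secreted matrix proteins Ogn and Mgp were at 1.02 ± 0.40 and 1.36 ± 0.58. Slc13a4 (0.98 ± 0.50) and Ccn3 (1.08 ± 0.61) had positive values with p above 0.05, and Ranbp3l was at -0.18 ± 0.43.

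The level of the meningeal list in each library, the mean over members of log2(CPM + 1) relative to the 12-library mean, shows the spread behind these counts. The Sham_solvent libraries had 0.80, 0.17 and 0.30, those of Sham_herb -0.46, 0.16 and -0.20, those of NPP_solvent -0.13, -0.48 and -0.73 and those of NPP_herb 0.46, 0.12 and 0.00. All NPP_herb libraries lay above all NPP_solvent libraries, and all Sham_herb libraries lay below all Sham_solvent libraries, Sham_herb 2 by a narrow margin. Leaving out any 1 of the 12 libraries gave a list median between 1.27 and 1.75, and between 10 and 15 members with an unadjusted p under 0.05. In bulk tissue, fewer cells of a type and less RNA per cell cannot be told apart. The sources used here do not say how much meningeal covering was dissected with each ganglion, and its part in the result was not tested.

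**Figure D2:**
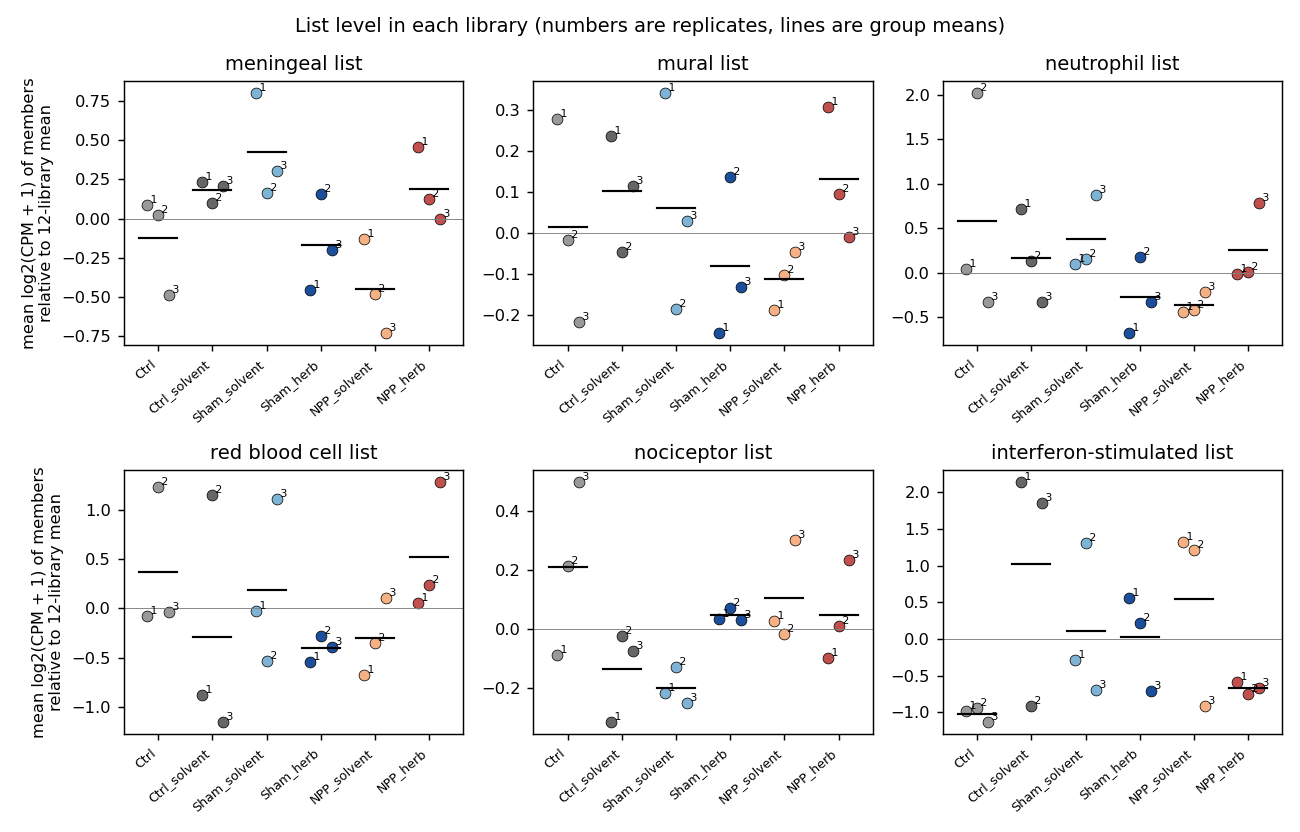
Level of 6 gene lists in every library, as the mean log2(CPM + 1) of the members relative to the mean of the 12 libraries compared; points are libraries with their replicate number, lines are group means, and the Ctrl and Ctrl_solvent libraries are shown for scale. The meningeal list is high in Sham_solvent and NPP_herb, among the 12 libraries compared the neutrophil and red blood cell lists are highest in replicate 3 of those groups, with Ctrl 2 above both of them for neutrophils, and the interferon-stimulated list is high in NPP_solvent 1 and 2, Sham_solvent 2 and Ctrl_solvent 1 and 3.

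Several further genes named by their small p belong to connective tissue. Igf2, a growth factor made by meningeal and perivascular fibroblasts, was called by DESeq2 (adjusted p 0.0450) and, without NPP_solvent replicate 1, by edgeR (adjusted p 0.0349). Igf2 was at 27.3, 15.4 and 23.9 CPM in Sham_solvent, 7.98, 12.2 and 8.14 in Sham_herb, 14.6, 5.099 and 5.11 in NPP_solvent and 17.2, 12.8 and 17.5 in NPP_herb. Sham_herb lay below Sham_solvent without overlap, and NPP_solvent 1 lay inside the range of NPP_herb. On the log2 scale, herb against solvent was 0.94 ± 0.37 (SE) in NPP and -1.23 ± 0.37 in Sham, an interaction of 2.18 ± 0.52 with an unadjusted edgeR p of 0.000803 and an adjusted p of 0.920.

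Fbln1, a matrix protein of elastic fibres, had tight Sham_solvent values. Fbln1 was at 15.4, 14.8 and 15.6 CPM in Sham_solvent, 7.4001, 9.49 and 9.12 in Sham_herb, 11.6, 9.19 and 8.699 in NPP_solvent and 14.03, 9.37 and 14.4 in NPP_herb. Sham_herb lay well below them, and the NPP groups overlapped. The log2 herb effect was 0.36 ± 0.20 (SE) in NPP and -0.82 ± 0.20 in Sham, which gave an interaction of 1.18 ± 0.28 (edgeR, unadjusted p = 0.000636, adjusted p = 0.920).

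The other genes of the 12 with the smallest p among those higher were Rn45s, Prdm6, Gjb6, Osr1, Lrrc32 and Vtn. Osr1 (2.22 ± 0.65), a transcription factor of fibroblast progenitors, and Prdm6 (2.34 ± 0.61), a regulator of smooth muscle, were at a few CPM. Gjb6 encodes connexin 30, the partner of connexin 26, and was at 3.36 ± 0.96. Lrrc32 (1.11 ± 0.32), which holds latent TGF-beta at the cell surface, crossed without overlap as Gjb2 did. Vtn, which encodes vitronectin, was at 0.99 ± 0.29. Rn45s, the precursor of ribosomal RNA, was at 2.16 ± 0.49, and its reads cannot be assigned to single copies of a repeated gene. LOC120102105, annotated as 18S ribosomal RNA and called by DESeq2 at an adjusted p of 0.000176, is outside the naming rule, which leaves out placeholder symbols, and was named after its value was seen. NPP_herb held from 1413 to 4079 CPM of Rn45s against 869.8 to 1095 in NPP_solvent, with no overlap. Named ribosomal RNA genes took 0.146% to 0.443% of reads in NPP_herb and 0.0886% to 0.114% in NPP_solvent. They took 0.0748% to 0.194% in Sham_solvent, 0.0711% to 0.0907% in Sham_herb and 0.222% to 0.322% in Ctrl. The libraries were mRNA-captured, and the part of that step in these values was not tested.

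The fibroblast and matrix list as a whole had a smaller difference than the meningeal one. Of 20 members tested, 17 were above 0, with a list median of 0.32. An unadjusted edgeR p under 0.05 was reached by 3 (Fbln1, Loxl1 and Mfap4), all higher, beside 1.89% of all genes. The collagen cross-linking enzyme Loxl1 was at 1.05 ± 0.45, and the microfibril protein Mfap4 at 3.14 ± 1.32. The list median was 0.70 without NPP_solvent replicate 3 and 0.18 without NPP_herb replicate 1. The number of members with an unadjusted p under 0.05 was 1 without NPP_herb replicate 1, Sham_herb replicate 1 or Sham_solvent replicate 3, and at most 4 in the other such fits. Herb against solvent was below 0 in 19 of 20 members in Sham and above 0 in 8 of 20 in NPP.

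Contractile genes of mural cells, the smooth muscle cells and pericytes of vessels, were split. Of 16 members tested, Tagln, Myl9, Cnn1 and Tpm2 had an unadjusted edgeR p under 0.05 and were higher, beside 1.89% of all genes. The list median was 0.40. Tagln encodes transgelin, an actin-binding protein of smooth muscle. Tagln was at 61.4, 24.1 and 42.8 CPM in Sham_solvent, 18.4, 32.3 and 26.9 in Sham_herb, 21.7, 23.9 and 19.6 in NPP_solvent and 39.8, 37.5 and 28.9 in NPP_herb. NPP_herb lay above NPP_solvent without overlap, and Sham_solvent 1 was the highest library. For Tagln, the log2 fold change of herb against solvent was 0.70 ± 0.35 (SE) in NPP and -0.72 ± 0.35 in Sham, and the interaction was 1.42 ± 0.50, with edgeR p-values of 0.0119 unadjusted and 0.920 adjusted. Herb lay above solvent without overlap in NPP for 6 of 16 members, beside 2.69% of all genes, and below it in Sham for 0. Without Sham_solvent replicate 1 the list median was 0.20 and 1 member had an unadjusted p under 0.05. Endothelial genes were near 0, with a median of 0.17 over 16 members, 1 of which (Emcn, 0.38 ± 0.18) had an unadjusted p under 0.05.

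**Figure D3:**
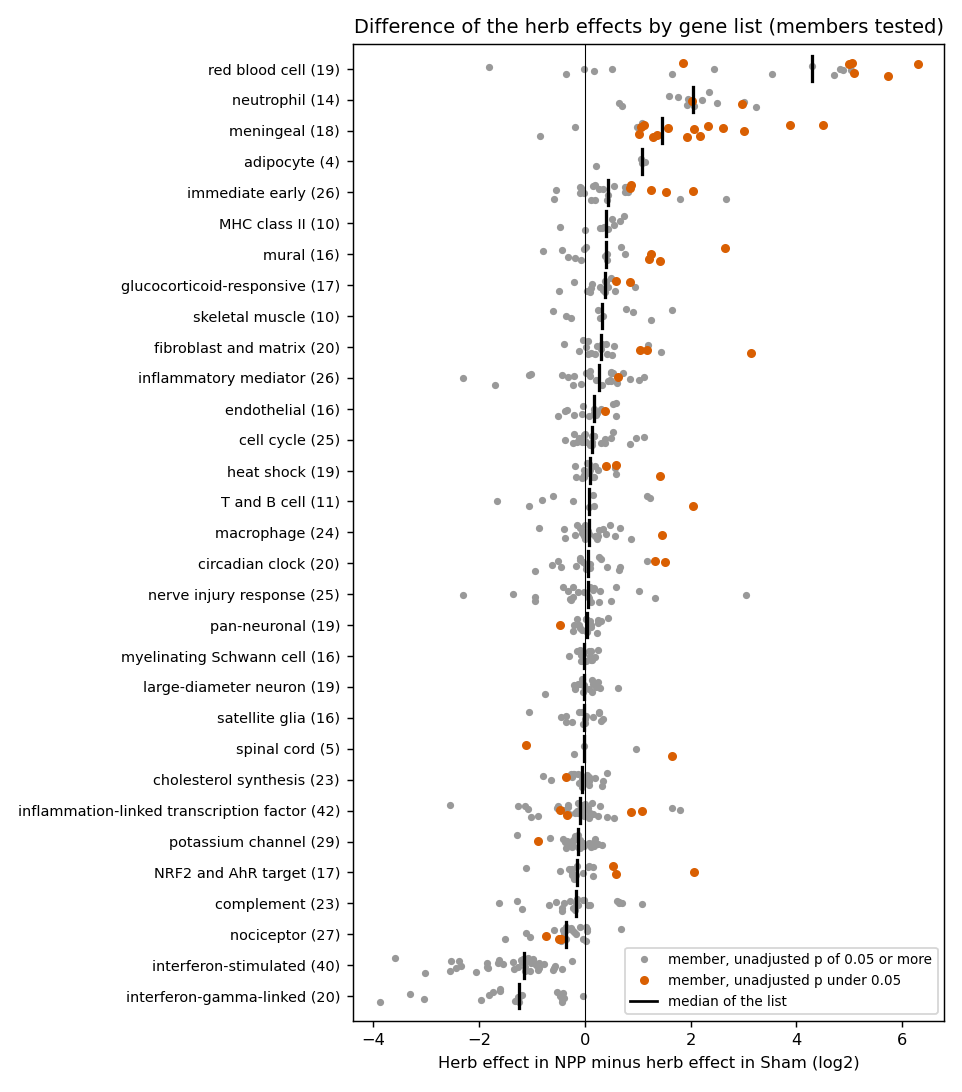
Interaction (horizontal axis, log2) of every tested member of the 31 gene lists, sorted by list median (black line); orange points have an unadjusted edgeR p under 0.05, grey points do not, and no point passed the adjusted test. The meningeal list stands out by its number of orange points, and both interferon lists lie wholly below 0 without one.

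Genes of neutrophils and red blood cells, which reach the tissue in blood, crossed in the same direction. All 14 neutrophil members were above 0 in NPP and below 0 in Sham, beside 21.1% of all genes, with a median interaction of 2.04. Of the 14, 2 (Cd177 and Mmp9) had an unadjusted edgeR p under 0.05 and were higher, beside 1.89% of all genes. That count was 8 without Sham_herb replicate 2 and when only the 12 libraries were fitted, 5 in DESeq2 and 0 without NPP_herb replicate 3. Camp, the antimicrobial cathelicidin of neutrophil granules, separated herb from solvent in both arms. Camp was at 5.32, 4.68 and 8.78 CPM in Sham_solvent, 2.05, 4.36 and 1.96 in Sham_herb, 0.860, 2.25 and 2.72 in NPP_solvent and 2.85, 4.52 and 7.39 in NPP_herb. NPP_herb lay above NPP_solvent, and Sham_herb lay below Sham_solvent, in every library. In log2 terms, herb differed from solvent by 1.34 ± 0.85 (SE) in NPP and by -1.17 ± 0.83 in Sham, for an interaction of 2.51 ± 1.18 at an unadjusted edgeR p of 0.0530 and an adjusted p of 0.920. The defensin Np4 crossed in the same way and was at 2.34 ± 1.17. Mmp9, a gelatinase of neutrophil granules, was at 2.03 ± 0.90, and Cd177, a neutrophil surface protein, at 2.97 ± 1.03.

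Of 19 red blood cell members, 16 were above 0, with a median of 4.29. An unadjusted edgeR p under 0.05 was reached by 6, among them Rhd, Ahsp, Slc4a1 and Hbb-bs, all higher, beside 1.89% of all genes. The number higher was 1 without NPP_herb replicate 3, 2 without Sham_solvent replicate 3, 10 without Sham_solvent replicate 2 and 11 when only the 12 libraries were fitted. Haemoglobin transcripts took 0.0113%, 0.00265% and 0.0815% of reads in Sham_solvent and 0.00354%, 0.00678% and 0.00462% in Sham_herb. They took 0.00210%, 0.00507% and 0.0155% in NPP_solvent and 0.0134%, 0.0186% and 0.0750% in NPP_herb. The highest values were those of Sham_solvent 3 and NPP_herb 3, and NPP_herb 3 and Sham_solvent 3 were also highest for the neutrophil list. The haemoglobin beta gene Hbb-bs, at a few CPM, was at 5.002 ± 2.201 and the anion exchanger Slc4a1 at 5.06 ± 1.997, both with a wide spread. Slc4a1 had a median of 0.085 FPKM over the 12 libraries, from 0.02 to 1.39, and Rhd a mean of 0.342 CPM. The log2 values of Slc4a1 and Rhd therefore rest on low counts. Hba-a1 and Hbb were better expressed, with medians of 58.3 and 43.5 FPKM. The list median was 2.06 without Sham_solvent replicate 3 and 2.99 without NPP_herb replicate 3. The meningeal median was 1.27 and 1.75 in the same fits. The part of blood in the other results was not tested.

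Nociceptor genes, those of small-diameter pain-sensing neurons, leaned the other way. Of 27 members tested, 22 were below 0, with a median interaction of -0.35, and 4 had an unadjusted p under 0.05, all lower, beside 1.51% of all genes. Herb against solvent was above 0 in 21 of 27 members in Sham, with a median of 0.31, and the NPP median was -0.07. Herb lay above solvent without overlap in Sham for 12 of 27 members, beside 8.52% of all genes, and in NPP for 0. The number of members with an unadjusted p under 0.05 was 1 without NPP_herb replicate 1, NPP_solvent replicate 3 or Sham_solvent replicate 3, 8 without NPP_herb replicate 3 and 10 in limma with quality weights, all lower. Without NPP_solvent replicate 3 the list median was -0.18, and without NPP_herb replicate 2 it was -0.23.

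Runx1, a transcription factor that specifies nociceptors, had the smallest p of the list. Runx1 was at 26.7, 28.1 and 27.4 CPM in Sham_solvent, 34.9, 38.1 and 37.3 in Sham_herb, 30.4, 33.1 and 34.3 in NPP_solvent and 27.2, 34.2 and 33.02 in NPP_herb. Sham_solvent formed a tight low group below every other library of the 12 except NPP_herb 1, which lay within its range. The fitted herb effects on Runx1 were -0.05 ± 0.11 (SE, log2) in NPP and 0.43 ± 0.11 in Sham, with an interaction of -0.48 ± 0.16, an unadjusted edgeR p of 0.00870 and an adjusted p of 0.920.

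P2rx3, the ATP-gated channel of nociceptors, followed the same order. P2rx3 was at 348, 392 and 342 CPM in Sham_solvent, 433, 449.7 and 466 in Sham_herb, 426, 439.7 and 474 in NPP_solvent and 357, 408 and 460.05 in NPP_herb. Sham_herb lay above Sham_solvent without overlap, and the NPP groups overlapped. On the log2 scale, herb against solvent was -0.13 ± 0.13 (SE) in NPP and 0.32 ± 0.13 in Sham, an interaction of -0.45 ± 0.18 with an unadjusted edgeR p of 0.0238 and an adjusted p of 0.920.

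Prdm12, a transcription factor needed for nociceptor development, was at -0.74 ± 0.34, and the heat and capsaicin receptor Trpv1 at -0.49 ± 0.23. The sodium channel Scn11a, at -0.39 ± 0.19, had an unadjusted edgeR p of 0.0574. Large-diameter neuron genes had a median of -0.01 over 19 members and pan-neuronal genes of 0.04 over 19. Satellite glia (-0.01, 16 members) and myelinating Schwann cell genes (0.00, 16 members) were near 0 as well, and none of their members had an unadjusted p under 0.05.

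Kcnn1, a small-conductance calcium-activated potassium channel that shapes the pause after an action potential, had the smallest p among the lower genes named by rule. Kcnn1 was at 6.54, 6.52 and 7.06 CPM in Sham_solvent, 9.57, 12.8 and 10.8 in Sham_herb, 8.68, 8.32 and 11.99 in NPP_solvent and 9.62, 7.25 and 9.08 in NPP_herb. The 3 Sham_solvent values were close together and lay below every library of the other 3 groups compared. The log2 herb effect was -0.16 ± 0.18 (SE) in NPP and 0.72 ± 0.18 in Sham, which gave an interaction of -0.88 ± 0.25 (edgeR, unadjusted p = 0.00280, adjusted p = 0.920). The other 28 potassium channel members had p above 0.05, and 22 of 29 were below 0, with a median of -0.13. Single libraries moved this median between -0.20 (without NPP_solvent replicate 1) and -0.02 (without NPP_solvent replicate 3), and in the latter fit 17 of 29 members were below 0.

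**Figure D4:**
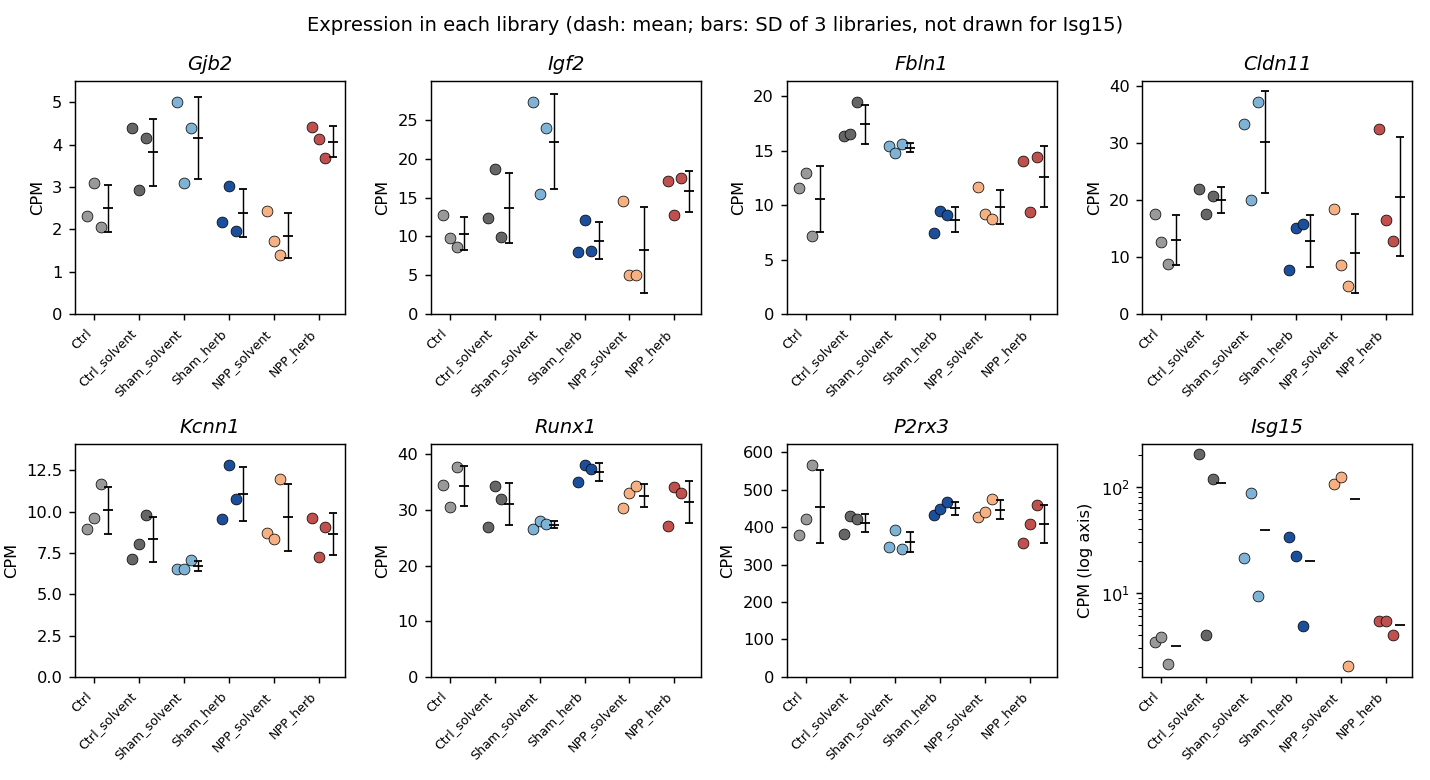
CPM of 8 genes in every library by group, with the mean and SD of 3 libraries beside the points; the Isg15 panel has a log axis and shows the mean only. Gjb2 is low in Sham_herb and NPP_solvent, Sham_solvent has the lowest mean of the 4 groups compared for Kcnn1, Runx1 and P2rx3, and Isg15 spans a wide range within NPP_solvent.

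The other 11 genes with the smallest p among those lower were Gpr35, Slc6a7, Mmp25, Spata13, Stx2, Prelid2, Gdpd4, Ggta1, Plod3, Rin1 and Wars2. Gpr35, a G protein-coupled receptor of sensory neurons and immune cells, was at -0.77 ± 0.23. Slc6a7, a proline transporter, was at -1.53 ± 0.47, and Rin1, a regulator of Ras and Rab signalling, at -2.08 ± 0.69, both at about 1 to 2 CPM. Mmp25, a membrane-anchored matrix metalloproteinase, crossed without overlap in the direction opposite to Gjb2. Mmp25 was at 26.6, 46.6 and 33.3 CPM in Sham_solvent, 56.8, 52.5 and 49.2 in Sham_herb, 52.5, 50.5 and 48.7 in NPP_solvent and 40.7, 42.1 and 48.5 in NPP_herb. NPP_herb lay below NPP_solvent and Sham_herb above Sham_solvent in every library. For Mmp25, the log2 fold change of herb against solvent was -0.21 ± 0.17 (SE) in NPP and 0.57 ± 0.17 in Sham, and the interaction was -0.78 ± 0.24, with edgeR p-values of 0.00499 unadjusted and 0.920 adjusted. Ggta1, a galactosyltransferase, crossed in the same way at -0.43 ± 0.14. Stx2, a membrane fusion protein, was at -0.45 ± 0.14, and Plod3, a collagen-modifying enzyme, at -0.54 ± 0.18.

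Interferon-stimulated genes had large negative interactions that did not pass the test in any member. All 40 members tested were below 0, with a median of -1.15, and 0 had an unadjusted p under 0.05 in edgeR or DESeq2, against 10 in limma with quality weights. Without Sham_solvent replicate 2, edgeR gave 16 of 40 members with an unadjusted p under 0.05, all lower, and the other 11 such fits gave 0 to 2. Herb against solvent was below 0 in all 40 in NPP, with a median of -1.55, and in 33 of 40 in Sham, with a median of -0.39. Interferon induces the members together, so they are not separate observations. Many have a recognised interferon response element in the promoter, to which IRF and STAT factors bind. A core of this element, read as GAAA, then 2 bases of any kind, then GAAA, or TTTC, 2 bases and TTTC on the other strand, with overlapping matches counted, was in 20 of the 29 promoters matched (69.0%), beside 418 of 12748 (3.28%) for all genes tested. Matching was by symbol to RefSeq windows of 300 bases, 250 before the start and 50 after it, on build GRCr8, and a gene with several starts was counted if any held the core. The 120 bases before the start are shown for 3 of these genes and for Gbp2, with the core in capitals, to show the element that members of both interferon lists share.
Irf7 (chr1:205800024-205800143, - strand): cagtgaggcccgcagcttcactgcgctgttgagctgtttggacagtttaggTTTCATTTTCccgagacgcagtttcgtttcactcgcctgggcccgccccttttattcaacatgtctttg
Oas1b (chr12:41395853-41395972, - strand): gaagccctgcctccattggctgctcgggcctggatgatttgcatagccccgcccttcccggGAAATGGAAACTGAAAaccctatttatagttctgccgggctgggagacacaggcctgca
Ifi44l (chr2:243328603-243328722, + strand): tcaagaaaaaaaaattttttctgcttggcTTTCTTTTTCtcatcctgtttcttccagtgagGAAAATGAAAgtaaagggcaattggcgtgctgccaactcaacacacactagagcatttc
Gbp2 (chr2:234005607-234005726, + strand): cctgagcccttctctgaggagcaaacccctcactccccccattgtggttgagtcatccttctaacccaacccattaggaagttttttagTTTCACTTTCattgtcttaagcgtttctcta
The core lay 69 bases before the start in Irf7, 59 and 53 in Oas1b, 91 and 59 in Ifi44l and 31 in Gbp2. A match describes these letters and says nothing about binding in these ganglia.

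Isg15, a ubiquitin-like protein and a sensitive marker of the response, varied widely within the solvent groups. Isg15 was at 21.3, 86.9 and 9.39 CPM in Sham_solvent, 33.4, 22.04 and 4.84 in Sham_herb, 108, 123 and 2.01 in NPP_solvent and 5.43, 5.35 and 3.996 in NPP_herb. NPP_solvent 1 and 2 and Sham_solvent 2 were high, NPP_solvent 3 was the lowest library of all, and all 3 NPP_herb libraries were low. In log2 terms, herb differed from solvent by -3.99 ± 1.503 (SE) in NPP and by -0.97 ± 1.31 in Sham, for an interaction of -3.02 ± 1.93 at an unadjusted edgeR p of 0.143 and an adjusted p of 0.920. Irf7, the transcription factor that amplifies interferon production, was high in the same 3 libraries. Irf7 was at 15.6, 124 and 13.1 CPM in Sham_solvent, 59.9, 32.4 and 8.602 in Sham_herb, 126, 161 and 8.07 in NPP_solvent and 10.8, 9.98 and 12.3 in NPP_herb. High and low libraries stood within NPP_solvent and within Sham_solvent, so the groups overlapped in both arms. Herb lay below solvent without overlap in NPP for 2 of the 40 members, beside 2.61% of all genes. The fitted herb effects on Irf7 were -3.15 ± 1.31 (SE, log2) in NPP and -0.61 ± 1.19 in Sham, with an interaction of -2.54 ± 1.73, an unadjusted edgeR p of 0.167 and an adjusted p of 0.920. Oas1b, a sensor of double-stranded RNA, was at -2.53 ± 1.56, and Ifi44l at -1.33 ± 0.82. The list median was -2.18 without Sham_solvent replicate 2 and -0.78 without NPP_solvent replicate 1.

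Interferon-gamma-linked genes, which encode guanylate-binding proteins and the machinery of antigen processing, were also all below 0. The 20 members had a median of -1.25, and 0 had an unadjusted p under 0.05 in edgeR, against 1 in DESeq2 and 1 in limma with quality weights. In edgeR that count was 2, both lower, when only the 12 libraries were fitted. It ran from 0 to 2 as single libraries were left out, and was 2 without Sham_solvent replicate 2. The core of the element was in 13 of 18 promoters matched (72.2%). Gbp2, a guanylate-binding protein, was highest in Sham_herb 2. Gbp2 was at 27.8, 61.3 and 19.96 CPM in Sham_solvent, 50.5, 119 and 25.4 in Sham_herb, 74.2, 71.2 and 26.7 in NPP_solvent and 36.7, 19.96 and 22.4 in NPP_herb. On the log2 scale, herb against solvent was -1.12 ± 0.86 (SE) in NPP and 0.83 ± 0.84 in Sham, an interaction of -1.95 ± 1.203 with an unadjusted edgeR p of 0.130 and an adjusted p of 0.920. The chemokine Cxcl9 was at -3.04 ± 1.64. Without Sham_herb replicate 2 the list median was -0.73. MHC class II genes had a median of 0.40, complement genes of -0.16 and macrophage genes of 0.08, with 0 of 10, 0 of 23 and 1 of 24 members at an unadjusted p under 0.05 in edgeR. Their medians ran from 0.12 to 1.32, from -0.32 to -0.02 and from -0.08 to 0.35 as single libraries were left out, the first highest without NPP_solvent replicate 1. The macrophage member was Lyve1 (1.46 ± 0.61), a hyaluronan receptor of perivascular macrophages and lymphatic vessels.

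Transcription factors linked to inflammation, the class named in the title of the series, showed no common direction. Of 42 tested, 16 were above 0, with a median of -0.09. An unadjusted edgeR p under 0.05 was reached by 4, beside 1.89% of all genes higher and 1.51% lower. Of these 4 members, Klf4 and Cebpb were higher, and Runx1 and Stat3 were lower. Without Sham_solvent replicate 2 there were 8 lower and 2 higher, and without NPP_herb replicate 2 there were 1 lower and 0 higher. Stat3, which relays signals of the interleukin-6 family, was at a low level in 1 Sham_solvent library. Stat3 was at 157, 199.8 and 192 CPM in Sham_solvent, 221, 209 and 214 in Sham_herb, 224, 215 and 232 in NPP_solvent and 199, 201 and 227 in NPP_herb. Sham_herb lay above Sham_solvent without overlap, and the NPP groups overlapped. The log2 herb effect was -0.10 ± 0.10 (SE) in NPP and 0.23 ± 0.10 in Sham, which gave an interaction of -0.33 ± 0.15 (edgeR, unadjusted p = 0.0399, adjusted p = 0.920). Klf4 was at 0.87 ± 0.33 and Cebpb, a factor of acute-phase and myeloid genes, at 1.09 ± 0.46. Of 26 inflammatory mediators tested, 17 were above 0, with a median of 0.27, and 1 (Il33, an alarmin of stromal and glial cells, 0.63 ± 0.28) had an unadjusted p under 0.05. That median ran from -0.10 to 0.43 as single libraries were left out, and it was below 0 without NPP_herb replicate 2. The cytokine gene Il1b (1.03 ± 1.07) and the chemokine genes Ccl2 (0.11 ± 0.73) and Cxcl10 (-1.01 ± 1.45) had errors larger than their values, and Tnf, at -2.303 ± 1.49, was under 1 CPM in every library.

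Genes that sensory neurons switch on after axon damage varied more within groups than between them. Of 25 members tested, 13 were above 0, with a median of 0.07, and 0 had an unadjusted p under 0.05. The injury transcription factor Atf3 showed the spread. Atf3 was at 12.96, 14.4 and 29.4 CPM in Sham_solvent, 11.6, 10.7 and 54.5 in Sham_herb, 83.1, 39.4 and 13.97 in NPP_solvent and 50.9, 107 and 10.8 in NPP_herb. Both NPP groups held 1 library at a level like that of Sham_solvent, and Sham_herb 3 was as high as some NPP libraries. For Atf3, the log2 fold change of herb against solvent was 0.30 ± 0.99 (SE) in NPP and 0.44 ± 0.999 in Sham, and the interaction was -0.13 ± 1.403, with edgeR p-values of 0.926 unadjusted and 0.991 adjusted. The neuropeptides Npy (-1.36 ± 2.87) and Gal (1.02 ± 1.19) and the growth-associated protein Sprr1a (-0.41 ± 2.41) had the same wide errors, and Jun was at -0.02 ± 0.31.

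Immediate early genes, which switch on within minutes of stimulation, leaned above 0. Of 26 tested, 20 were above 0, with a median of 0.43. An unadjusted edgeR p under 0.05 was reached by 5 (Klf2, Klf4, Ccn2, Ccn1 and Dusp1), all higher, beside 1.89% of all genes. This count was 1 without Sham_solvent replicate 1, 9 without NPP_solvent replicate 1 and 10 without NPP_herb replicate 3, and the median was 0.17 in limma with quality weights. Klf2 (1.26 ± 0.46) is a flow-responsive factor of endothelium, and Ccn2 (1.54 ± 0.59) encodes a matrix protein of fibroblasts. Fos, the classical marker of stimulation, was highest in NPP_herb 2. Fos was at 2.28, 4.05 and 3.55 CPM in Sham_solvent, 2.08, 2.28 and 2.75 in Sham_herb, 4.45, 2.53 and 2.23 in NPP_solvent and 7.15, 13.4 and 2.74 in NPP_herb. In log2 terms, herb differed from solvent by 1.33 ± 0.62 (SE) in NPP and by -0.48 ± 0.63 in Sham, for an interaction of 1.81 ± 0.88 at an unadjusted edgeR p of 0.0583 and an adjusted p of 0.920. Glucocorticoid-responsive genes were above 0 in 15 of 17, with a median of 0.38. That median was -0.17 in limma with quality weights, 0.13 without NPP_solvent replicate 3 and 0.21 without Sham_solvent replicate 1. Its members Errfi1 (0.59 ± 0.25), which restrains growth factor receptors, and the phosphatase gene Dusp1 (0.85 ± 0.40) had an unadjusted p under 0.05. In Sham, herb lay below solvent without overlap for 6 of 17 glucocorticoid-responsive and 6 of 19 heat shock members, beside 6.06% of all genes, and in NPP for 0 of either. Heat shock genes had a median of 0.11, with Hspa1b (1.42 ± 0.61), Hspe1 (0.59 ± 0.26) and Dnajb1 (0.40 ± 0.19) at an unadjusted p under 0.05, a count that was 0 without NPP_solvent replicate 3 or Sham_solvent replicate 3. Cholesterol synthesis (-0.05, 23 members), cell cycle (0.14, 25 members) and circadian clock genes (0.07, 20 members) had medians near 0.

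Single libraries moved the counts. Without Sham_solvent replicate 2 the number of genes with an unadjusted p under 0.05 was 2304, without NPP_herb replicate 3 it was 1167, without NPP_solvent replicate 2 it was 896 and without Sham_solvent replicate 1 it was 345. The number called was 0 or 1 in these and the other 8 such fits. The share of higher among the genes with an unadjusted p under 0.05 was 55.5%, and 65.4% with DESeq2's size factors in edgeR, 68.4% in DESeq2 and 45.6% on FPKM. The Sham_solvent libraries also differed in how level depended on transcript length. The slope of log2 level on log2 length, relative to the mean of all 18 libraries of the series, was -0.181, 0.0779 and -0.0852 in Sham_solvent and 0.0523, 0.0875 and 0.0582 in Sham_herb. It was 0.00651, -0.0540 and 0.137 in NPP_solvent and 0.0413, -0.0468 and 0.122 in NPP_herb. Sham_solvent 1 and 3 lay below 0 and Sham_solvent 2 above it, and the part of this slope in the results was not tested.

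**Figure D5:**
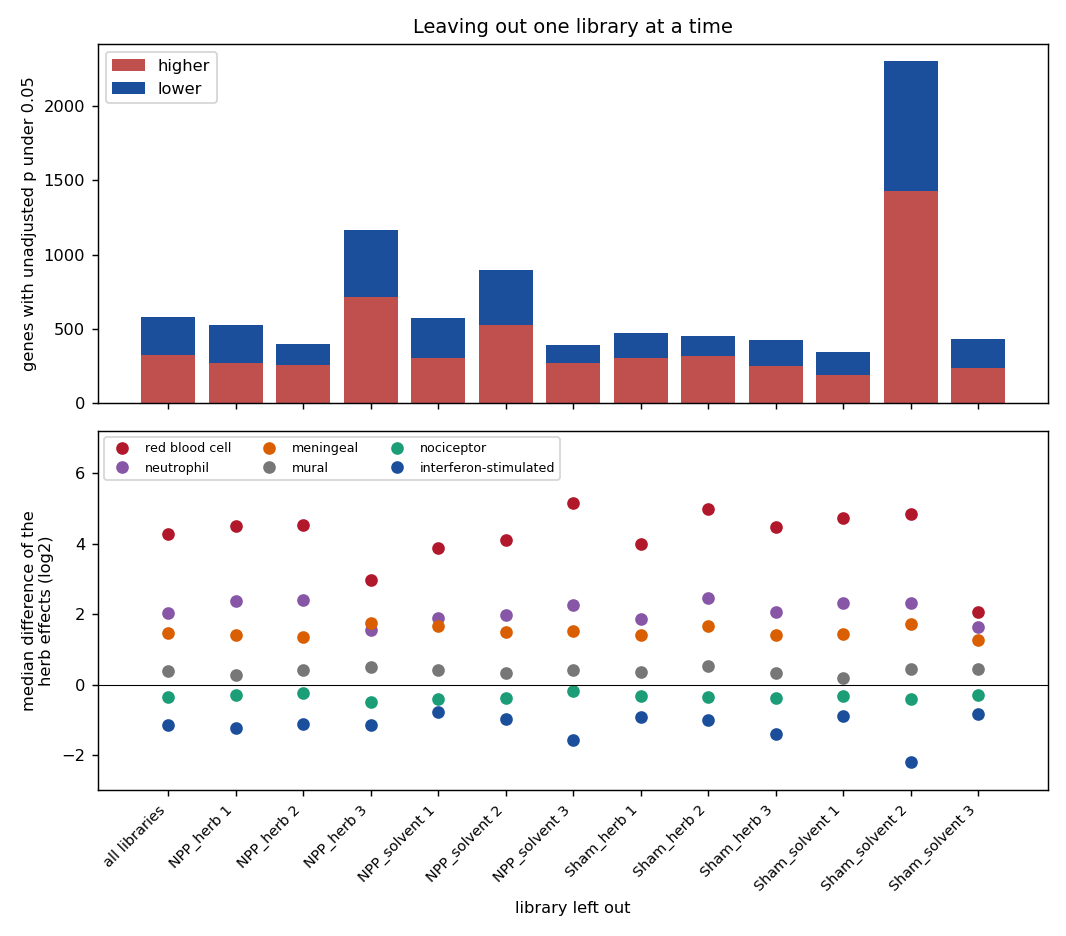
Upper panel, number of genes with an unadjusted edgeR p under 0.05 for the interaction when 1 library is left out (bars, higher and lower stacked); lower panel, median interaction of 6 gene lists in the same fits (points, log2). Leaving out Sham_solvent 2 gives the tallest bar, 2304 genes, and each list median keeps its side of 0 in all 12 fits.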

How the data were processed

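Total RNA of rat dorsal root ganglia was mRNA-captured and sequenced in pairs, per the labels' protocols. The authors deposited a table of read counts per gene and a table of FPKM per gene. Per the submitters' processing notes, HISAT2, DESeq2 and the build mRatBN7.2 were used. The counter, its annotation and its strand setting are not given in the sources at hand. Overlapping and antisense genes therefore cannot be told apart. Per the deposited tables, FPKM is the count over total count and a length fixed per gene.

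The counts were analysed in R 4.3.3 with edgeR 4.0.16. The filterByExpr function kept 17043 of 25678 genes, and the genes removed held at most 0.0495% of a library's reads. All 18 libraries (6 groups of 3) were scaled by TMM and fitted in 1 quasi-likelihood model with 12 residual degrees of freedom, so Ctrl and Ctrl_solvent inform the spread only. The contrast was (NPP_herb - NPP_solvent) - (Sham_herb - Sham_solvent), with Benjamini-Hochberg adjustment over all genes tested. Library totals were 18334197 to 50289652 reads in the 12 libraries compared. CPM values use TMM-scaled totals. The fitting was tested on simulated data.

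Named genes were the 12 with the smallest p in each direction among those with a mean of at least 1 CPM, leaving out placeholder symbols such as LOC with digits, up to 3 per gene list, and a fixed set of injury and inflammation genes. Other list members were named to describe a list. Members and the 31 lists were chosen with earlier results of these data known. Alternatives were DESeq2 1.42.0, limma 3.58.1 with quality weights or on log2(FPKM + 0.1 or 1), other scaling, filtering and covariates, and leaving out each library. Promoter sequences are RefSeq's, on GRCr8, and no coordinate was taken from the count tables.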

Additional observations from a re-analysis of the deposited data

How the results depend on the processing

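The number of genes called was 0 in edgeR with other size factors, without a filter, on 12 libraries only, with a sex term and with a replicate block, and in limma on FPKM or with quality weights; it was 3 in DESeq2. It ranged from 0 to 1 when single libraries were left out. The smallest edgeR adjusted p was 0.135 with the sex term, against 0.830 without it. The sex term marks whether a library held Y-linked reads. These were close to absent only in Ctrl 2 (0.0488 CPM) and Ctrl 3 (0.0321 CPM), which are outside the comparison. All 12 libraries compared held them, so the term bears on the estimated spread and cannot adjust the interaction for sex. The number of genes with an unadjusted p under 0.05 was 580, and it was 2235 in limma with quality weights and 899 on FPKM without a filter. It ranged from 345 to 2304 when single libraries were left out, and the cause was not tested. Replicate numbers recur across groups. Between herb and solvent of an arm all 6 same-numbered pairs deviated together weakly (r from 0.054 to 0.23), against 3 of 12 other-numbered pairs with r above 0. Libraries were taken relative to their group mean, so positive same-numbered pairs push the other-numbered ones below 0. The 12 other-numbered pairs are therefore not an independent contrast. Between the arms the 12 same-numbered pairs had r from -0.28 to 0.11. With comparisons within and between arms pooled, the own number was the best match in 7 of 18. The labels do not say that a number marks a shared litter or day. With the replicate block, which fits the same shift for a number in all groups, 603 genes had an unadjusted edgeR p under 0.05 and 0 were called. Pairing within an arm only was not tested.

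On log2(FPKM + 1), which shrinks low genes, the medians were 0.77 for the meningeal, 1.22 for the neutrophil and 0.70 for the red blood cell list, and in limma with quality weights they were -1.92 for the interferon-stimulated and 0.65 for the fibroblast and matrix list. Among named genes, Atf3 was at 0.042 with the replicate block, Sprr1a at 0.088 on log2(FPKM + 1), and Jun at 0.0018 with other size factors, 0.0021 on 12 libraries only and 0.0019 in DESeq2. Leaving out single libraries gave ranges that crossed 0 for Atf3 (-0.996 to 1.07), Ccl2 (-0.22 to 0.44), Gal (-0.10 to 1.64), Il1b (-0.19 to 1.51), Jun (-0.16 to 0.20), Npy (-3.43 to 3.14), Ranbp3l (-0.44 to 0.33) and Sprr1a (-2.61 to 3.40). With 3 libraries a group and a median SE of 0.26, small interactions could not be detected, and some several times their SE did not pass.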
